A study of Punica granatum with 8 samples.

Results

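Hairy roots of pomegranate that overexpressed either of 2 R2R3 Myb genes were set as 1 group of 5 libraries against 3 libraries of hairy roots carrying the empty vector (EV), out of 8 libraries in all. The overexpression group held line 1712, with 2 libraries, whose labels give overexpression of PgMyb308, and PgMyb308-like overexpression, with 3 libraries. Members were taken by sample label, and the question was which genes stood apart from EV in both constructs together. For each such gene the contribution of either construct was then recorded. By the labels, all roots were of cultivar PG116-17, were picked by a GFP marker and were grown for 3 months in a greenhouse. For PgMyb308-like and EV, the study infected seedlings with Agrobacterium rhizogenes MSU440, drove PgMyb308-like from the 35S promoter, which is active in most plant cells, and counted each root from its own seedling as a replicate. The text of the study does not describe line 1712. Its promoter and bacterial strain, and whether its 2 libraries come from separate seedlings, are not given in the sources used here, so that the spread between these 2 libraries may be technical. Both constructs were compared with the same 3 EV roots, so that an effect of the Mybs and a level particular to those 3 roots cannot be told apart.

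R2R3 Myb proteins are plant transcription factors that bind DNA through a pair of Myb repeats. Those of subgroup S4, to which the study assigns PgMyb308-like, include repressors of genes of the phenylpropanoid pathway. This pathway makes lignin, hydroxycinnamic acids and the precursors of flavonoids. The Myb308 of snapdragon, overexpressed in tobacco, is known for lowering lignin and soluble phenolics. Pomegranate roots and peels are known for gallotannins and ellagitannins, which branch from the shikimate pathway upstream of phenylpropanoids. The gene table names genes by locus identifier, and the annotation used here gives each gene's position and type but no product. The genes below are therefore described by position and level, without a role.

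In TranSeq only the 3′ end of a transcript is sequenced, and counts do not scale with gene length. Library totals ran from 1263321 to 3976951 counts, and the 10 most abundant genes took 3.65% to 6.80% of a library. Beyond counting noise, libraries within a group varied with a coefficient of variation of 0.418 (edgeR). Log2 CPM values (counts per library size, where TMM, the trimmed mean of M values, adjusts that size) were summarized by principal components. On the first, with 36.1% of the variance, PgMyb308-like replicates 1 and 2 lay at 97.8 and 44.9 and PgMyb308-like replicate 3 at -46.3. The line 1712 libraries lay at -31.2 and 31.6 and the EV libraries between -59.2 and -6.2, so that the component did not follow the groups. On the second, with 15.6% of the variance, the overexpression libraries lay at -20.2 and -9.9 (line 1712) and at 13.2, -35.8 and -47.3 (PgMyb308-like), and the EV libraries at 5.2, 51.5 and 43.3, so that the groups overlapped only through PgMyb308-like replicate 1 and EV replicate 1. The transgenes could not be matched to rows of the table, and their levels were not analysed here.

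Of 15129 genes tested, 13 differed between the pooled overexpression libraries and EV, a share of 0.0859% (edgeR quasi-likelihood test, with a Benjamini-Hochberg adjusted p under 0.05 and a log2 fold change of more than 1 in size). In overexpression 8 of them were higher and 5 were lower, or 0.0529% and 0.033% of the genes tested. For comparison, 1109 genes had an unadjusted p under 0.05, 694 of them higher and 415 lower, against 756 expected with no change in any gene. Among the 13, all 5 overexpression libraries lay on 1 side of all 3 EV libraries. Over all genes tested this held in 5.41%, with overexpression above EV in 3.11% and below it in 2.3%. That separation follows in part from the call itself, which was made on the same libraries. The median log2 fold change of all genes tested was 0.02. In these whole roots, fewer cells of a type and less RNA per cell cannot be told apart.

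**Figure D1:**
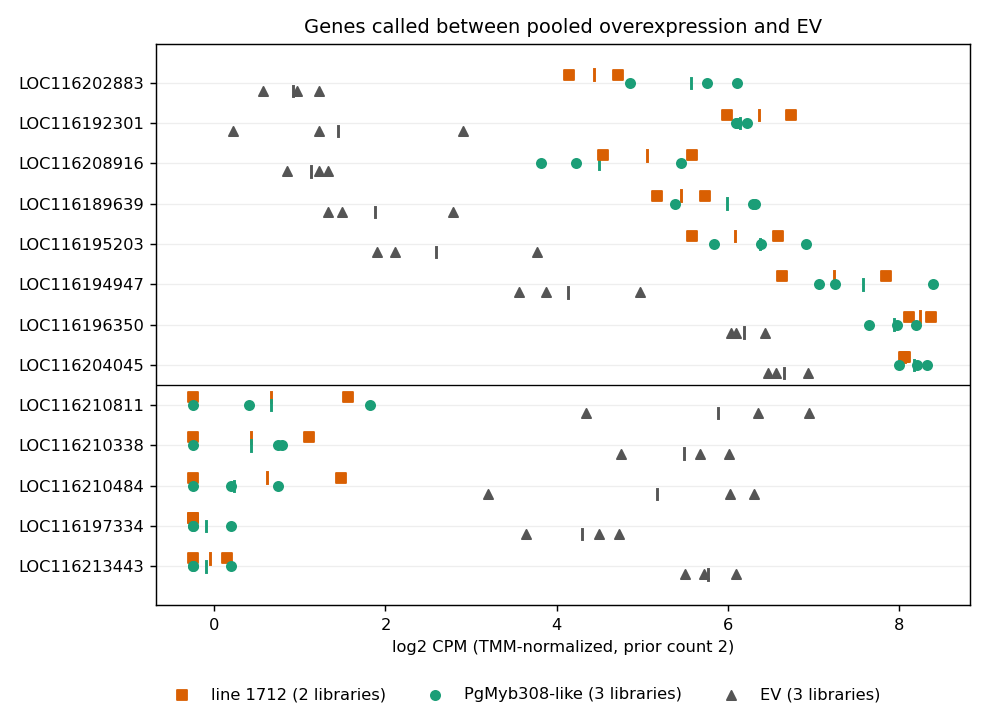
Log2 CPM of the 13 called genes (x axis, TMM-normalized, prior count 2) in each library, with the 2 line 1712 libraries as squares, the 3 PgMyb308-like libraries as circles, the 3 EV libraries as triangles and a short bar at each group mean. The 8 genes above the black line were higher in overexpression and the 5 below it lower, and the marks of the lower genes in overexpression crowd at the left end, which is the value of 0 counts.

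The 8 higher genes lay on 5 chromosomes and all encode proteins. In 5 of them no EV library exceeded 12.8 CPM. LOC116202883 (chromosome 4, 7221858 to 7226218, RefSeq annotation of ASM765513v2) stood at 16.9 and 25.4 CPM in line 1712 and at 53.1, 28.0 and 68.0 CPM in PgMyb308-like, against 1.11, 1.48 and 0.641 CPM in EV. Its log2 fold change was 5.14 (SE 0.66, adjusted p = 0.0232 from edgeR), and its 3 EV libraries held 7 counts in all. LOC116192301 (chromosome 1, 6488547 to 6489785) stood at 62.4 and 105.5 CPM in line 1712 and at 68.0, 67.6 and 74.0 CPM in PgMyb308-like, against 6.66, 1.48 and 0.320 CPM in EV. Its overexpression libraries were close together, within 1.69-fold, whereas EV spanned 20.8-fold, and the log2 fold change was 4.87 (SE 0.64, adjusted p = 0.0235 from edgeR). EV replicate 1 held most of its EV counts, and the log2 fold change was 6.47 without that library and 4.22 without EV replicate 3.

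LOC116208916 (chromosome 5, 8261267 to 8262571) had 3 counts in each EV library and 322 counts over the 5 overexpression libraries. Its levels were 22.4 and 46.9 CPM in line 1712 and 13.3, 43.0 and 17.8 CPM in PgMyb308-like, against 1.67, 1.48 and 0.961 CPM in EV, with a log2 fold change of 4.38 (SE 0.61, adjusted p = 0.0280 from edgeR). The overexpression libraries varied 3.53-fold among themselves, with a low and a high library in each construct. LOC116189639 (chromosome 8, 24266648 to 24268026) stood at 52.4 and 35.2 CPM in line 1712 and at 78.8, 77.2 and 40.7 CPM in PgMyb308-like, against 1.67, 1.98 and 6.09 CPM in EV (log2 fold change 4.01, SE 0.50, adjusted p = 0.0232 from edgeR). LOC116195203 (chromosome 2, 28606827 to 28608966) stood at 46.9 and 95.1 CPM in line 1712 and at 56.4, 119.2 and 82.6 CPM in PgMyb308-like, against 12.8, 3.46 and 2.88 CPM in EV (log2 fold change 3.70, SE 0.55, adjusted p = 0.0448 from edgeR). In LOC116195203 the highest EV library, replicate 1, lay 3.68-fold below the lowest overexpression library.

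The other 3 higher genes were plainly expressed in EV as well. LOC116194947 (chromosome 2, 32951609 to 32952697) stood at 98.3 and 229.2 CPM in line 1712 and at 151.7, 336.5 and 132.5 CPM in PgMyb308-like, against 30.5, 13.8 and 10.9 CPM in EV. With a log2 fold change of 3.38 (SE 0.51) it lay closest to the threshold of the 13, at an adjusted p of 0.0495 from edgeR. LOC116196350 (chromosome 1, 53266215 to 53272931) averaged 269.7 ± 48.7 CPM in overexpression (SD, n = 5) and 72.6 ± 11.2 CPM in EV (SD, n = 3), a ratio of the summed counts, scaled by library size, of 3.62. Its libraries ran from 199.6 to 330.1 CPM in overexpression and from 64.8 to 85.5 CPM in EV, so that the groups were 2.34-fold apart at their nearest (log2 fold change 1.89, SE 0.23, adjusted p = 0.0206 from edgeR). LOC116204045 (chromosome 4, 37066700 to 37070514) had the smallest change of the 13 and the least spread among overexpression libraries. It stood at 267.7 and 265.0 CPM in line 1712 and at 295.1, 318.6 and 253.6 CPM in PgMyb308-like, against 121.0, 87.5 and 93.6 CPM in EV, with a log2 fold change of 1.48 (SE 0.20, adjusted p = 0.0237 from edgeR). Its 5 overexpression libraries, from both constructs, lay within 1.26-fold of each other.

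The 5 lower genes were at or near 0 in every overexpression library. LOC116213443 (chromosome 7, 6867901 to 6877779, protein coding) had 1 count in line 1712 replicate 1, 1 in PgMyb308-like replicate 3 and none in the other 3 overexpression libraries, against 121, 90 and 162 counts in EV. The EV level was 67.2, 44.5 and 51.9 CPM, even among the 3 roots, and 644 counts would have been found in overexpression at that level. The EV libraries held 322 times as many counts for their size as the overexpression libraries (exact 95% interval 88.5 to 2670, counting error only), and the adjusted p was the lowest of all genes tested, 0.000117 from edgeR. LOC116197334 (chromosome 1, 41454003 to 41455576), a long non-coding RNA and the only called gene that does not encode a protein, had no count in line 1712 and a single count in PgMyb308-like replicate 3, against 21, 44 and 80 counts in EV. Its EV level was 11.7, 21.8 and 25.6 CPM, 250 times that of overexpression (exact 95% interval 44.2 to 9950), with an adjusted p of 0.00822 from edgeR. A level of up to 0.790 to 2.49 CPM, depending on the depth of the library, would go unseen at 0 counts (3 counts of the total, counting error only).

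The remaining 3 lower genes are neighbours on chromosome 6. They lie in a run of 4 consecutive annotated genes, all protein coding, from 27004938 to 27013888, a span of 9 kb. LOC116210338 (27004938 to 27006211) had 6 counts over the 5 overexpression libraries against 333 over the 3 EV libraries. The next, LOC116210484 (27007640 to 27008897), had 5 against 373, and LOC116210813 (27010043 to 27011204) had 5 against 159. The last, LOC116210811 (27012235 to 27013888), had 18 against 534, so that all 4 were close to silent in overexpression and expressed in EV. Over the 4 genes and 5 libraries, 10 of the 20 overexpression values were 0 counts. LOC116210338 stood at 0 and 1.30 CPM in line 1712 and at 0.829, 0 and 0.891 CPM in PgMyb308-like, against 26.1, 63.8 and 50.3 CPM in EV (log2 fold change -6.35, SE 0.67, adjusted p = 0.00822 from edgeR).

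LOC116210484, with a log2 fold change of -6.65 (SE 0.92, adjusted p = 0.0280 from edgeR), stood at 0 and 1.95 CPM in line 1712 and at 0.829, 0 and 0.297 CPM in PgMyb308-like, against 8.33, 78.1 and 64.1 CPM in EV. LOC116210811 stood at 2.11 and 0 CPM in line 1712 and at 0, 0.483 and 2.67 CPM in PgMyb308-like, against 19.4, 122.1 and 80.7 CPM in EV (log2 fold change -5.72, SE 0.74, adjusted p = 0.0232 from edgeR). Of its 18 overexpression counts, 8 came from line 1712 replicate 1 and 9 from PgMyb308-like replicate 3, the deepest overexpression libraries. LOC116210813 did not pass the threshold, with a log2 fold change of -5.68 (SE 1.00, adjusted p = 0.0777 from edgeR). It had 5 counts in PgMyb308-like replicate 3 and none in the other 4 overexpression libraries, against 6.11, 42.5 and 19.9 CPM in EV. EV replicate 1 was the lowest EV library for each of the 4 genes, and in LOC116210484 it was 9.38-fold below EV replicate 2.

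The genes on both sides of the run did not pass the test. LOC116209838, at lower coordinates (26994335 to 27000657), averaged 16.6 ± 7.35 CPM in overexpression (SD, n = 5) and 9.69 ± 4.74 CPM in EV (SD, n = 3), with an adjusted p of 0.80 from edgeR. LOC116210814, on the other side (27016500 to 27018552), averaged 32.8 ± 10.4 CPM in overexpression (SD, n = 5) and 20.1 ± 11.6 CPM in EV (SD, n = 3), with an adjusted p of 0.755 from edgeR. Among the 29 other genes tested within 100 kb of the centre of the run, log2 fold changes ran from -1.10 to 3.36 with a median of 0.03. The lowest adjusted p was 0.176 from edgeR. Of these genes, 2 had an unadjusted p under 0.05 from edgeR, and both were higher in overexpression. They were LOC116210809 (log2 fold change 3.36, adjusted p = 0.320 from edgeR) and LOC116210298 (0.99, adjusted p = 0.176 from edgeR). The 4 genes have adjacent positions and similar lengths of 1162 to 1654 bases, and whether they are alike in sequence, so that reads of one could be counted for another, was not tested. Their separate values are to that extent uncertain. Around all called genes together, 180 uncalled genes lay within 100 kb of a called gene, and 6.11% of them had an unadjusted p under 0.05, against 7.33% of all genes tested. Near LOC116213443, 1 of the 12 other genes tested within 100 kb had an unadjusted p under 0.05, and it was also lower in overexpression. This was LOC116213447 (log2 fold change -3.14, SE 0.71, adjusted p = 0.225 from edgeR). It stood at 0 to 1.95 CPM in overexpression against 8.90 to 12.8 CPM in EV. Whether reads of one gene were counted for the other was not tested.

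**Figure D2:**
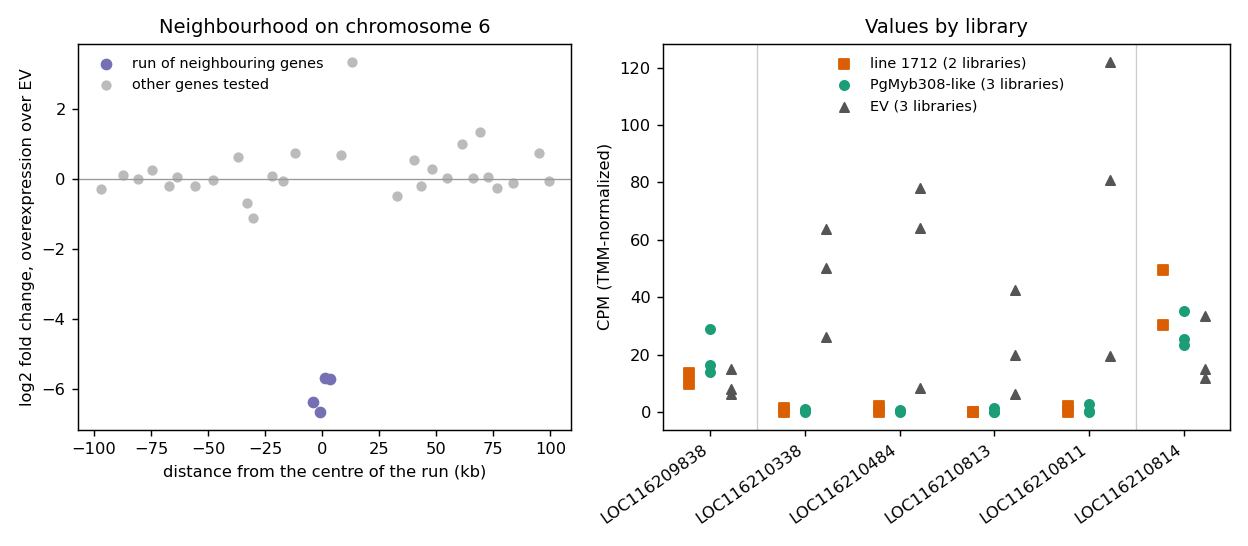
Left, log2 fold change of overexpression over EV (y axis) against the distance in kb from the centre of the run on chromosome 6 (x axis) for every gene tested within 100 kb, where the 4 genes of the run lie near -6 and the other 29 between -1.10 and 3.36. Right, TMM-normalized CPM (y axis) in each of the 8 libraries for the 4 genes of the run, between the grey lines, and for the tested gene on either side, which was present in all libraries.

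Both constructs contributed to each of the 13 genes. A construct was counted as contributing where its mean log2 CPM differed from that of EV by at least 1 in the direction of the pooled change. For the higher genes the line 1712 mean lay 1.41 to 4.91 above EV and the PgMyb308-like mean 1.52 to 4.69 above it. For the lower genes the line 1712 mean lay between -5.82 and -4.53 from EV and the PgMyb308-like mean between -5.87 and -4.39. Of all genes with a pooled log2 fold change above 1 in size, both constructs contributed in 48.1%, and of the 1109 with an unadjusted p under 0.05 in 40.8%. Over all genes tested the share was 4.48%. The pooled test asks for a small spread over all 5 overexpression libraries, so that a gene moved by 1 construct alone is at a disadvantage in it, and the 13 of 13 is a description. Both differences use the same EV libraries.

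The pooled test favours a small spread over all 5 overexpression libraries, so that an overlap of the constructs is a description only. Their ranges overlapped in 12 of the 13 genes, and the share over all genes tested was not computed. The exception was LOC116202883, in which both line 1712 libraries (16.9 and 25.4 CPM) lay below all 3 PgMyb308-like libraries (28.0 to 68.0 CPM). PgMyb308-like was higher than line 1712 there by 1.25 on the log2 scale (95% interval 0.21 to 2.29, unadjusted p = 0.0232, adjusted p = 0.999 over all genes tested, edgeR). In the other 12 the interval of the difference held 0. It was narrowest for LOC116204045, where PgMyb308-like minus line 1712 was 0.12 (95% interval -0.43 to 0.66), and for LOC116196350, at -0.30 (95% interval -0.88 to 0.28). In the lower genes it was wide, since both constructs were near 0 counts: in LOC116197334 it ran from -1.63 to 5.43. None of the 13, and none of all 15129 genes, was called between the constructs by edgeR. That comparison had 531 genes (3.51%) at an unadjusted p under 0.05, against 756 expected with no change in any gene. It sets 3 libraries against 2, so that the lack of calls does not show that the constructs agree. DESeq2 called 11 genes between the constructs, none of them among the 13.

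**Figure D3:**
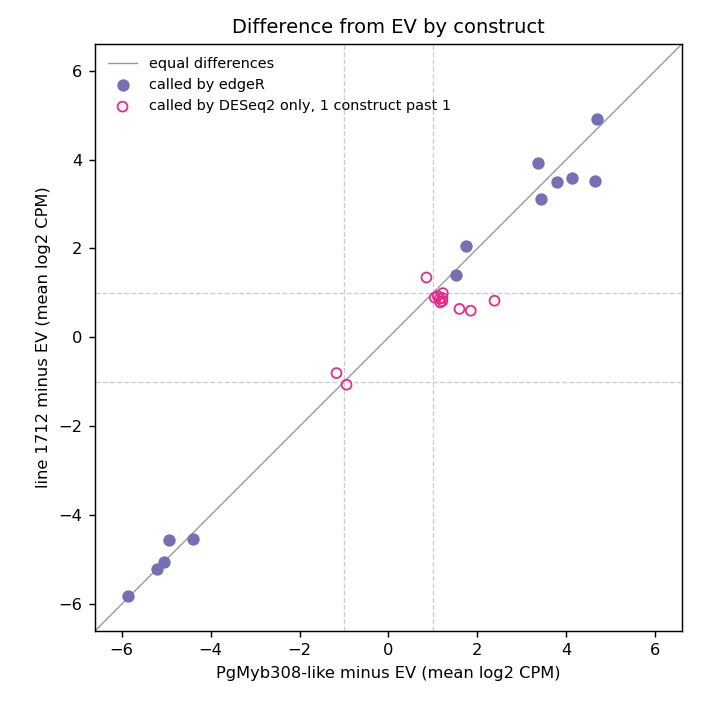
Mean log2 CPM of PgMyb308-like minus EV (x axis) and of line 1712 minus EV (y axis) for the 13 genes called by edgeR (filled) and for the 13 genes called by DESeq2 alone in which 1 construct passed 1 (open). Dashed lines mark a difference of 1 and the grey diagonal equal differences, and as both axes share the EV libraries, nearness to the diagonal is not evidence of its own.

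Genes to which a single construct contributed appeared below the threshold of edgeR. Among the 1109 genes with an unadjusted p under 0.05, both constructs contributed in 452, PgMyb308-like alone in 215, line 1712 alone in 91, and neither reached 1 in 351. The pooled mean holds 3 PgMyb308-like and 2 line 1712 libraries, and whether this weighting bears on these counts was not tested. The shares of the classes of a single construct over all genes tested were not computed, so that the counts do not rank the constructs. DESeq2 called 186 genes in the pooled comparison (1.23% of the genes tested), 143 higher (0.945%) and 43 lower (0.284%), including all 13. Both constructs contributed to 173 of them, PgMyb308-like alone to 11 and line 1712 alone to 2. In the 13 genes of a single construct the mean of the other construct differed from EV in the same direction, by 0.60 to 1.00 in size.

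For line 1712 alone these were LOC116205381, whose mean lay 1.35 above EV in line 1712 and 0.85 above it in PgMyb308-like, and LOC116197555, at -1.06 and -0.94. LOC116205381 stood at 194.4 and 270.2 CPM in line 1712 and at 179.9, 171.9 and 138.7 CPM in PgMyb308-like, against 116.5, 89.0 and 69.2 CPM in EV. The clearest cases for PgMyb308-like alone, picked after their values were seen, were LOC116214757 and LOC116207759. LOC116214757 stood at 44.5 and 38.4 CPM in line 1712 and at 145.9, 85.5 and 79.0 CPM in PgMyb308-like, against 27.2, 23.7 and 30.4 CPM in EV. LOC116207759 stood at 12.1 and 7.16 CPM in line 1712 and at 35.6, 29.0 and 24.1 CPM in PgMyb308-like, against 3.33, 5.44 and 6.41 CPM in EV. In both, all line 1712 libraries lay between EV and PgMyb308-like. Their construct difference had an unadjusted p of 0.00332 and 0.00860 and an adjusted p of 0.999 from edgeR, and their pooled change an adjusted p of 0.334 from edgeR.

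A further 20 genes had the fold change but an adjusted p between 0.05 and 0.1 from edgeR, 16 higher and 4 lower, which takes the share at the looser limit to 0.218%. In all 20 both constructs contributed and the groups did not overlap, and DESeq2 called all 20. Over all genes tested, both constructs contributed in 4.48% and the groups did not overlap in 5.41%. As the 20 were picked by fold change and p on the same libraries, these traits follow in part from the pick. LOC116214125 had no count in any EV library and stood at 5.27 and 11.1 CPM in line 1712 and at 12.4, 24.1 and 16.6 CPM in PgMyb308-like (adjusted p = 0.0615 from edgeR). LOC116201782 had 23.2 and 63.2 CPM in line 1712 and 56.4, 85.0 and 197.2 CPM in PgMyb308-like, against 3.33, 2.97 and 0.320 CPM in EV (log2 fold change 5.38, SE 0.87, adjusted p = 0.0615 from edgeR). The most abundant was LOC116194583, at 1281 and 1240 CPM in line 1712 and at 1530, 1810 and 806 CPM in PgMyb308-like, against 481.7, 406.4 and 487.7 CPM in EV (log2 fold change 1.54, SE 0.26, adjusted p = 0.0720 from edgeR). Besides LOC116210813, the lower genes were LOC116202515, LOC116213678 and LOC116209810. LOC116209810 stood at 0.527 and 3.26 CPM in line 1712 and at 1.66, 0 and 4.75 CPM in PgMyb308-like, against 59.9, 32.6 and 19.2 CPM in EV.

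The number of calls turned on single libraries. Leaving out EV replicate 2 or EV replicate 3 left 1 gene each, LOC116213443. Leaving out PgMyb308-like replicate 2 left 3 genes. Without line 1712 replicate 2, 7 genes were called, 6 of them among the original 13. In contrast, 23 were called when line 1712 replicate 1 was dropped and 20 when PgMyb308-like replicate 3 was. With PgMyb308-like replicate 1 left out, the library farthest out on the first component, 13 genes were called, 11 of them among the original 13. LOC116213443 was called without any single library in turn, LOC116197334 and LOC116210338 in 6 of these 8 fits and LOC116196350 in 5. LOC116194947 and LOC116210484 kept their calls in 2 of 8. Leaving out 1 library also moved 5 of the fold changes by over 1.5 times. Besides LOC116192301, these were LOC116195203 (log2 fold change 4.65 without EV replicate 1), LOC116189639 (4.91 without EV replicate 3), LOC116210484 (-7.67 without line 1712 replicate 2) and LOC116197334 (-8.46 without PgMyb308-like replicate 3). Every one of the 13 kept its direction in all 8 fits, which the full separation of the groups made all but certain beforehand. Both constructs contributed to every gene called in these fits.

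EV replicate 1 was the EV library nearest to overexpression in 10 of the 13 genes, 6 of the 8 higher and 4 of the 5 lower. These 4 include the 3 called neighbours on chromosome 6, and the share over all genes tested was not computed. EV replicate 1 lay at -59.2 on the first component, the lowest of all 8 libraries. Its part in these values was not tested beyond leaving it out, which gave 10 calls, 8 of them among the 13. Among the overexpression libraries the nearest to EV was PgMyb308-like replicate 3 in 5 genes, line 1712 replicate 1 in 4, line 1712 replicate 2 in 3 and PgMyb308-like replicate 1 in 1.

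**Figure D4:**
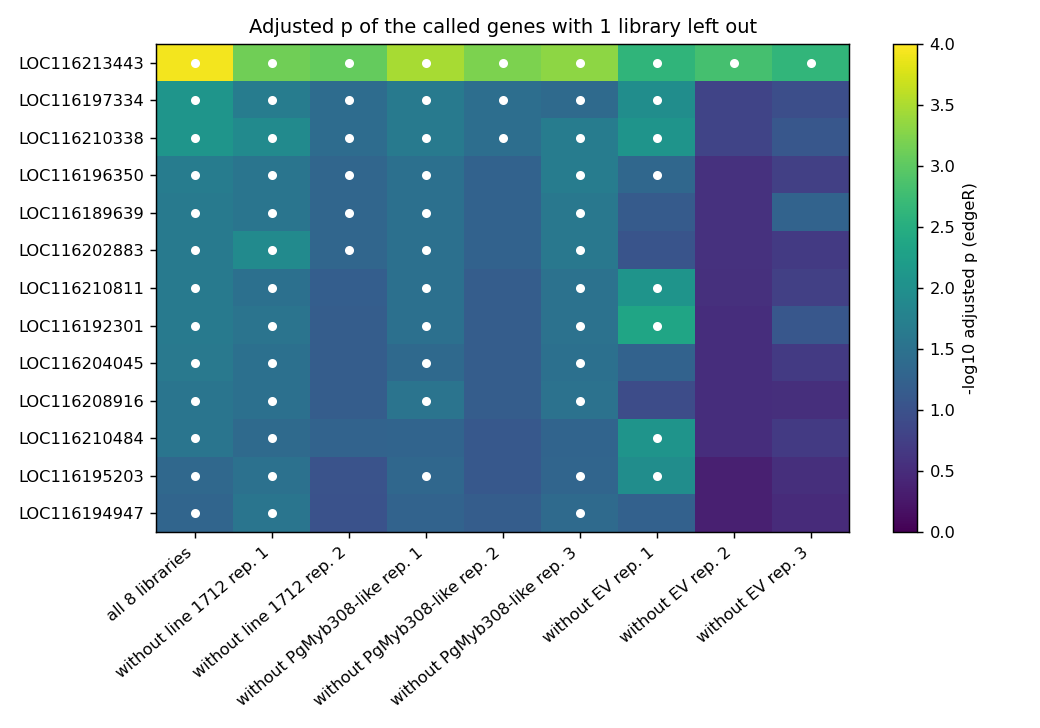
Minus log10 of the adjusted p from edgeR (colour) for the 13 called genes (y axis) with all 8 libraries and with each library left out (x axis), where a white dot marks a gene that passed both thresholds. LOC116213443 was called in every column, and the columns without EV replicate 2 and without EV replicate 3 hold no other dot.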

How the data were processed

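The authors mapped the TranSeq reads with STAR 2.4.2a against the pomegranate genome, ran htseq-count 0.6.1p1 over gene ends whose 3′ untranslated region had been lengthened downstream, and deposited the raw counts per gene. Further tools in the submitters' processing notes are cutadapt, DESeq, bcl2fastq 2.17.1.14 and DESeq2 1.10.1. A second deposited table of counts divided by size factors was not used here. With lengthened ends, a read of one gene may be counted for the next.

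From the 18831 genes of the count table, 15129 passed edgeR 4.0.16's low-count filter (at least 10 counts in enough libraries, 15 in total). Counts were normalized by TMM and tested in R 4.3.3 with the quasi-likelihood test, as 2 groups with 6 residual degrees of freedom, and with 3 groups for the difference between constructs. The standard error is the log2 fold change divided by the square root of F. Log2 CPM, and with it the differences of the constructs from EV, used a prior count of 2. The fitted fold changes did not use that setting, and for genes near 0 they depend on a prior of their own. The scales are therefore unlike for such genes. LOC116213443 had a fitted log2 fold change of -7.98, against differences in log2 CPM of -5.82 (line 1712) and -5.87 (PgMyb308-like). Intervals of count ratios are exact and binomial. The chi-square per degree of freedom between libraries of a group was 8.34 to 34.7, so that none was a copy of another. The comparison, lists and rules were chosen with earlier results of these data known, and all called genes were named, as they were 30 or fewer. The 20 genes of the next limit and the genes of 1 construct were added after their values were seen.

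Of the 18831 identifiers, 18819 matched 1 entry of the RefSeq annotation of ASM765513v2, including all genes tested. It holds no products, so that the lists of pathways, protein families and cell type markers, the transgene loci and the root identity could not be checked. No sequence was printed, as none was at hand. The procedure was tested on simulated data. Alternatives were DESeq2 1.42.0, limma-voom (limma 3.58.1), edgeR's newer quasi-likelihood method, equal weights for the constructs, other size factors, other filters, thinned counts, a replicate block and each library left out.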

Additional observations from a re-analysis of the deposited data

Results flagged for a closer look

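Over the 13 called genes, the 5 overexpression libraries were searched for a value far from the rest (gap to the nearest library over the whole range above 0.71, the Dixon limit for 5 libraries), which chance flags in about 1 in 20 groups. LOC116192301 stood at 105.5 CPM in line 1712 replicate 2, above the other 4 overexpression libraries at 62.4 to 74.0 CPM and on the same side of EV as they were. LOC116197334 stood at 0.297 CPM in PgMyb308-like replicate 3, where the other 4 overexpression libraries had no count. That value is a single count.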

How the results depend on the processing

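The 13 calls, to all of which both constructs contributed, were 13 with RLE size factors, without the filter and without the fold threshold, and 12 with library totals. DESeq2 called 186 genes (both constructs in 173), edgeR's newer quasi-likelihood method 26 and the fit with equal weights for the constructs 6. With limma-voom 4 were called, 3 of them among the original 13. The adjusted p of the 13 from limma-voom ran up to 0.666, in LOC116202883. A mean count of at least 50 gave 6 with only 8 of the 13 genes tested, and counts thinned to the smallest total gave 8. In each of these fits but DESeq2 both constructs contributed to every call. Leaving out 1 library gave 1 to 23 calls, all with both constructs, and leaving out PgMyb308-like replicates 1 and 2 together, chosen after seeing the data, gave 13, of which 8 were among the original 13. The cause of these differences was not tested, beyond the smaller number of genes or libraries where that applies. The difference between the constructs called 0 of the 13 genes in the alternatives that keep more than 1 library of each construct. The pooled call favours genes alike in both constructs, so that this does not show that the constructs agree. All 13 genes kept their direction wherever they were tested, which the full separation of the groups in these genes made all but certain beforehand. LOC116213443 alone kept its call in each of the 18 alternatives it entered. Of the genes with an unadjusted p under 0.05, 62.6% were higher in overexpression with edgeR and 44.9% with limma-voom.

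With the replicate number as a block, 1 gene was called, LOC116213443, and both constructs contributed to it. The numbers do not pair the libraries: deviations from the group means of same-numbered libraries correlated at -0.283 to 0.212, and the labels give the numbers no shared plant or day. Depth limits the lower genes, whose 1 to 18 counts over 5 libraries fix no fold change.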
